A study of Mus musculus with 12 samples.

Results

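Foxp3, the lineage factor of regulatory T cells (Treg cells), a class of CD4 T cells that holds immune responses back, and the 5 Ikaros family zinc-finger genes Ikzf1 to Ikzf5 were followed across 12 RNA-seq libraries of mouse Treg cells. The 6 genes were taken by symbol from a table of 24394 entries, and each symbol matched 1 entry. The cells were sorted from C57BL/6 mice aged 7 weeks. WT cells carried no named allele. KO cells came from mice labelled Foxp3CreBatffl/fl, in which a Cre driven from the Foxp3 locus removes a floxed Batf gene, so that Batf, a lymphocyte transcription factor of the AP-1 family, is lost in cells that express Foxp3. Unstimulated cells of each genotype were set beside cells kept for 48 h with IL-2 (200 U/ml) on dishes coated with anti-CD3 and anti-CD28 (5 µg/ml). No culture time, IL-2 or antibody is given for the unstimulated cells. Stimulation here therefore means culture, IL-2 and antibodies together, which cannot be told apart. Each of the 4 groups held 3 libraries, and nothing in the labels says that the 3 came from separate animals. The p-values therefore reflect only how these libraries vary, which may be partly or, in some groups, wholly technical. The KO label names an allele of Foxp3 itself and the WT label names none, so for Foxp3 RNA the loss of Batf and the Cre allele cannot be told apart.

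Foxp3 is a forkhead protein that holds Treg cells in their state and restrains genes of effector T cells. Ikaros family proteins bind DNA through zinc fingers near one end and pair with each other through zinc fingers near the other, and they recruit chromatin remodellers that mostly repress. Ikzf1 encodes Ikaros, Ikzf2 encodes Helios, Ikzf3 encodes Aiolos, Ikzf4 encodes Eos and Ikzf5 encodes Pegasus. Helios stabilises Treg cells and marks many of those made in the thymus, Eos joins Foxp3 in silencing genes, and Ikaros and Aiolos act in most lymphocytes, B cells included.

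Expression is given as RPKM, reads per kilobase of exon scaled to the reads assigned to genes in that library, as the authors deposited it. A library held 22731823 to 32055383 assigned reads, and a member gathered between 510 reads (Ikzf5) and 12491 reads (Ikzf1) in a library, so all 6 members passed the filter of at least 1 RPKM in 3 libraries and were tested among 10406 genes. Fold changes were estimated with limma on log2(RPKM + 1) and carry 95% intervals, and a gene was called where its Benjamini-Hochberg adjusted p was under 0.05. The targeted gene, Batf, had less RNA in each KO library than in the lowest WT library, with log2 fold changes of -1.45 without stimulation (limma adjusted p = 0.000189) and -2.52 with it (limma adjusted p = 1.17e-06). Y-linked transcripts set some libraries apart. They summed to 84.5 and 92.9 RPKM in unstimulated WT libraries 1 and 2 and to 55.4 and 59.2 RPKM in stimulated WT libraries 1 and 2, but to at most 0.174 RPKM in WT library 3 of either state and to 0 in every KO library. Every log2 fold change of a member was therefore also computed without the 4 libraries that hold them. That leaves each WT group with 1 library, whose spread is assumed to equal that of the other groups. By these transcripts, WT library 3 of each state did not come from the same animals as WT libraries 1 and 2. They do not tell whether WT libraries 1 and 2, or the KO libraries, came from separate animals.

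Markers of Treg cells were abundant in every library, with 6 markers other than the members summing before stimulation to 1128 to 1197 RPKM (WT) and 1077 to 1153 RPKM (KO), and after it to 1201 to 1232 RPKM (WT) and 901 to 995 RPKM (KO). Markers of other cells were present before stimulation. The 7 markers of B and plasma cells summed to 100 to 142.7 RPKM in WT and 69.2 to 121 in KO, and the 13 markers of myeloid and dendritic cells to 30.2 to 37.9 RPKM in WT and 22.7 to 24.8 in KO. Both sums were far lower after stimulation, at 6.00 to 8.06 and 7.96 to 11.2 RPKM for B and plasma cells and at 0.684 to 1.17 and 1.06 to 2.21 RPKM for myeloid and dendritic cells (WT and KO). The 2 CD8 T cell markers summed to 15.2 to 16.9 RPKM in WT and 15.6 to 18.1 RPKM in KO before stimulation and to 4.19 to 5.84 and 3.62 to 4.90 RPKM after it, and the 4 NK cell markers were at 14.0 to 17.4 and 9.61 to 15.9 RPKM before and under 1 RPKM after stimulation. Within a list the markers differed, and only some are given here. Jchain of the B and plasma cell list and Tyrobp of the NK cell list also count in the sums. Before stimulation the B cell receptor chain Cd79b stood at 25.67 to 65.81 RPKM, Cd79a at 3.02 to 9.58 RPKM and Ms4a1 at 3.898 to 7.86 RPKM, while the B cell factor Pax5 stayed under 1 RPKM in every library. Of the CD8 chains, Cd8b1 stood at 15.05 to 17.68 RPKM before stimulation and Cd8a under 1 RPKM in every library. The NK cell receptor Klrb1c stood at 2.02 to 3.96 RPKM before stimulation and Ncr1 at 0.567 to 2.90 RPKM, and Klra8 was at 0 in every library.

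The stretch upstream of Foxp3 is shown because Batf is an AP-1 factor, the KO carries its Cre at this gene and Foxp3 RNA fell the most of the 6 with stimulation. RefSeq's promoter table (GRCm38.p6, the assembly that mm10 names) held 5 start sites for 3 of the 6 members, Foxp3, Ikzf1 and Ikzf5. The 250 bases before the outermost Foxp3 start, chrX:7579426-7579675 on the plus strand, follow with the letters TATAAA in capitals.
Foxp3 upstream: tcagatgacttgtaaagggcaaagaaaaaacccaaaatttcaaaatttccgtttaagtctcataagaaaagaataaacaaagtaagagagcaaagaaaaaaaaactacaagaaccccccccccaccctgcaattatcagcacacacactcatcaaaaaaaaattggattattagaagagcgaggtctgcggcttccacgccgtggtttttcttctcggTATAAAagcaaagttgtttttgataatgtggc
TATAAA begins 32 bases before the start and was found in 12.4% of 32851 promoter windows of this length, on either strand. The AP-1 letters TGANTCA had 0 matches in the 5 windows, against 6.75% of all windows, and so did the Ikaros-type core TGGGAA (21.6% of all) and the forkhead core TGTTTAC (3.17% of all). A window without a match says only that these letters are not in it.

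Foxp3 (chromosome X, 7579676 to 7595243, plus strand, mm10) was among the most abundant members and lost about as much RNA with stimulation in WT as in KO cells. It stood at 74.81, 70.81 and 64.89 RPKM in unstimulated WT libraries 1 to 3 and at 54.17, 66.28 and 54.74 RPKM in unstimulated KO. After 48 h it stood at 32.81, 31.92 and 37.14 RPKM in WT and at 28.85, 27.17 and 26.44 RPKM in KO. Every stimulated library was thus below every unstimulated one. KO library 2 reached into the WT range before stimulation, whereas the genotypes did not overlap after it. The means were 70.2 ± 4.99 and 58.4 ± 6.83 RPKM before and 34.0 ± 2.79 and 27.5 ± 1.24 RPKM after stimulation (WT and KO, SD, n = 3).

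Between genotypes, the log2 fold change of Foxp3 in KO against WT was -0.26 (SE 0.09, interval -0.46 to -0.07) in unstimulated cells, which did not pass (limma adjusted p = 0.0772), and -0.29 (SE 0.09, interval -0.48 to -0.10) in stimulated cells, which did (limma adjusted p = 0.0373). The unstimulated value passed without KO library 2 (-0.36, limma adjusted p = 0.0158). The stimulated call was lost in 6 of the 12 fits that left out 1 library: without unstimulated WT library 2 (-0.29, limma adjusted p = 0.0523), without stimulated WT library 2 (-0.33, 0.0542) or 3 (-0.23, 0.157), and without stimulated KO library 1 (-0.33, 0.0526), 2 (-0.29, 0.101) or 3 (-0.27, 0.128). It was also lost with a block by library number (-0.29, limma adjusted p = 0.0583), when a Y-linked term entered the fit (-0.30, 0.0827) and when the 4 libraries with such transcripts were left out (-0.42, 0.0666). Foxp3 shares 590 exon bases with Ccdc22 on the other strand and 267 with Ppp1r3fos on its own strand, and no source used here gives the strand setting of the counting. Neither neighbour was called between genotypes. With stimulation Ppp1r3fos was called lower in WT (-1.198) and in KO (-1.115), and Ccdc22 was called in neither. The part of the shared bases in the Foxp3 values was not tested.

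Ikzf2 (chromosome 1, 69531210 to 69685960, minus strand), which encodes Helios, was the member that differed most between genotypes and the only one called lower in KO cells of both states. Without stimulation it stood at 19.43, 20.32 and 20.55 RPKM in WT libraries and at 14.86, 12.91 and 10.52 RPKM in KO libraries. After stimulation it was 19.00, 19.49 and 21.52 RPKM in WT and 10.93, 8.76 and 8.06 RPKM in KO. In words, the 6 WT libraries lay close together whatever their state, and every KO library lay under all of them. The log2 fold change was -0.63 (SE 0.12, interval -0.88 to -0.37, limma adjusted p = 0.00511) before stimulation and -1.04 (SE 0.12, interval -1.30 to -0.79, limma adjusted p = 6.43e-05) after it, when the RNA was 2.06-fold lower on this scale.

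Among the 10406 genes, Ikzf2 ranked 105th by size of fall in stimulated cells and 233rd in unstimulated cells. In each KO state, library 1 had the most Ikzf2 and library 3 the least, and Batf RNA had the same order, at 46.91, 32.99 and 25.94 RPKM before and 26.49, 21.20 and 17.98 RPKM after stimulation. Without both KO libraries numbered 1 the log2 fold changes of Ikzf2 were -0.74 (limma adjusted p = 0.000779) and -1.16 (limma adjusted p = 1.81e-05). That fit was chosen after seeing the data. Since these libraries had the most Ikzf2 of their groups, larger falls were fixed in advance, and the fit adds no support. Its calls held in each of the 12 fits that left out 1 library. With the 4 libraries that hold Y-linked transcripts left out, the stimulated call held (-1.15, limma adjusted p = 0.0155) and the unstimulated one did not (-0.66, limma adjusted p = 0.189), in a fit that called 98 genes against 1060.

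**Figure D1:**
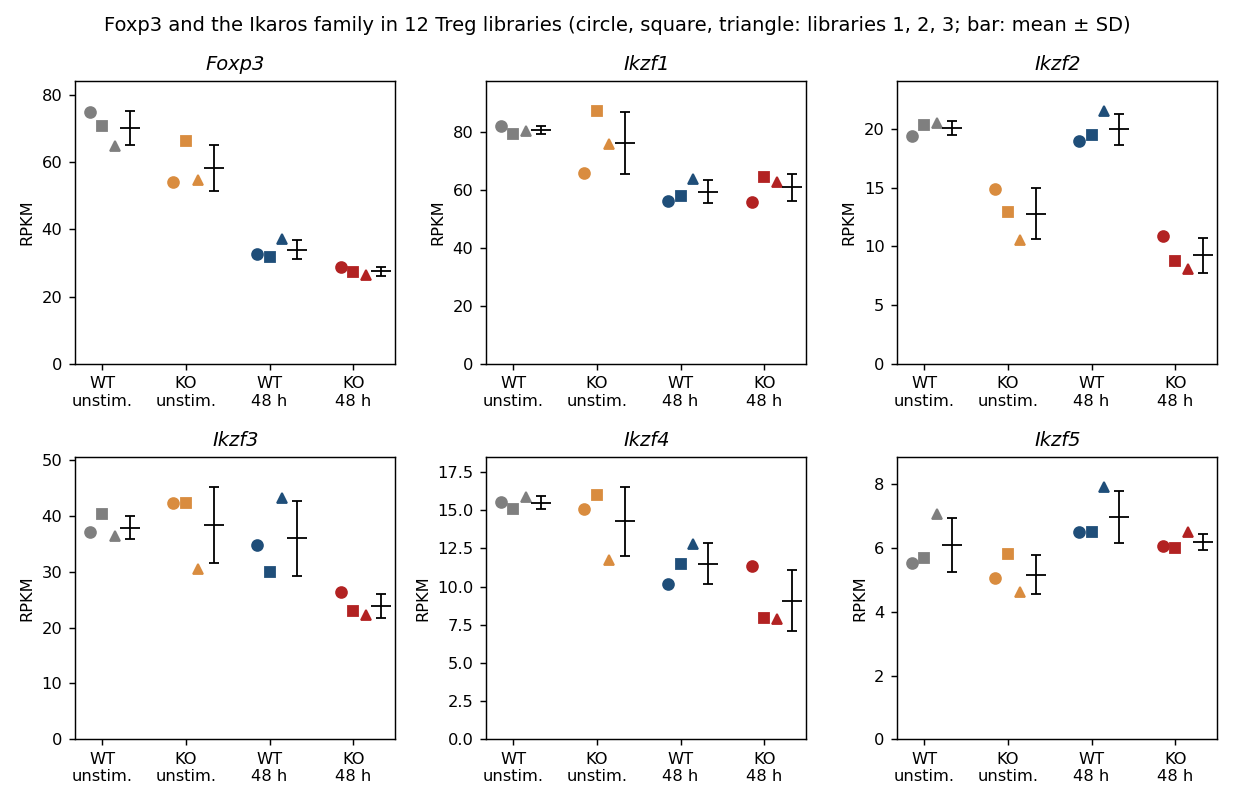
RPKM (y axis, linear from 0) of Foxp3 and Ikzf1 to Ikzf5 in each of the 12 libraries, by genotype and state; circles, squares and triangles are libraries 1, 2 and 3, and bars are mean ± SD. Foxp3 drops from 54.17 to 74.81 RPKM before to 26.44 to 37.14 RPKM after stimulation in both genotypes, while Ikzf2 separates KO libraries (8.06 to 14.86 RPKM) from WT libraries (19.00 to 21.52 RPKM) in both states.

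The panel of RPKM by library puts the other Ikaros genes beside this. Ikzf3 (chromosome 11, 98464693 to 98546031, minus strand), which encodes Aiolos, stood at 37.06, 40.20 and 36.36 RPKM in unstimulated WT and at 42.17, 42.32 and 30.52 RPKM in unstimulated KO. With stimulation it stood at 34.75, 29.92 and 43.16 RPKM in WT and at 26.33, 22.89 and 22.31 RPKM in KO. The genotypes overlapped before stimulation and parted after it, with the stimulated KO libraries the lowest of the 12. KO against WT was 0.00 on the log2 scale before stimulation (interval -0.29 to 0.30, limma adjusted p = 0.996) and -0.56 after it (SE 0.14, interval -0.85 to -0.27, limma adjusted p = 0.0137). That call was lost without stimulated WT library 3, the highest of its group (-0.42, limma adjusted p = 0.0647), and without stimulated KO library 2 (-0.53, 0.0511) or 3 (-0.52, 0.0595), and it held without the libraries with Y-linked transcripts (-0.83, limma adjusted p = 0.0289).

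Ikzf4 (chromosome 10, 128632415 to 128645993, minus strand), which encodes Eos, stood at 15.53, 15.07 and 15.88 RPKM in unstimulated WT and at 15.08, 16.00 and 11.73 RPKM in unstimulated KO. After stimulation it stood at 10.17, 11.51 and 12.82 RPKM in WT and at 11.37, 7.95 and 7.89 RPKM in KO, where library 1 lay within the WT range and the other libraries below it. The log2 fold change in KO was -0.12 (interval -0.42 to 0.17, limma adjusted p = 0.609) before and -0.32 (interval -0.62 to -0.03, limma adjusted p = 0.117) after stimulation. Neither passed, but without stimulated KO library 1 the second did (-0.48, limma adjusted p = 0.0226).

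Ikzf1 (chromosome 11, 11685925 to 11772926, plus strand), which encodes Ikaros, was the member with the most RNA in every group. It stood at 82.10, 79.43 and 80.29 RPKM in unstimulated WT, 65.81, 87.19 and 75.78 RPKM in unstimulated KO, 56.34, 58.01 and 63.91 RPKM in stimulated WT and 55.71, 64.39 and 62.78 RPKM in stimulated KO. The genotypes overlapped in both states, with log2 fold changes of -0.09 (interval -0.29 to 0.11, limma adjusted p = 0.584) and 0.04 (interval -0.16 to 0.24, limma adjusted p = 0.822). Ikzf5 (chromosome 7, 131388649 to 131410478, minus strand), which encodes Pegasus, had the least RNA, with 5.55, 5.69 and 7.06 RPKM in unstimulated WT, 5.07, 5.81 and 4.62 RPKM in unstimulated KO, 6.49, 6.50 and 7.91 RPKM in stimulated WT and 6.06, 6.01 and 6.49 RPKM in stimulated KO. Its KO and WT libraries overlapped before stimulation and came close without overlap after it. The log2 fold changes, -0.20 (interval -0.43 to 0.03, limma adjusted p = 0.257) and -0.14 (interval -0.38 to 0.09, limma adjusted p = 0.372), did not pass.

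Counted together, 1 of the 6 members was called lower and 0 higher in unstimulated KO cells, where 5.83% of all tested genes were called lower and 4.35% higher (607 and 453 genes, or 532 and 619 after rescaling by median-of-ratios factors). In stimulated KO cells 3 of 6 (Foxp3, Ikzf2 and Ikzf3) were called lower and 0 higher, where 9.81% of all genes were called lower and 7.76% higher. Whether the genotype difference itself changed with stimulation was tested as an interaction, which called 0 of 6 members by limma (0 by limma-voom) and, of all genes, 2.37% toward higher and 2.25% toward lower. For Ikzf3 the difference of log2 fold changes was -0.56 (interval -0.98 to -0.15, limma unadjusted p = 0.0119, limma adjusted p = 0.124) and for Ikzf2 it was -0.42 (interval -0.78 to -0.05, limma unadjusted p = 0.0277, limma adjusted p = 0.194). These 2 were the members with an unadjusted p under 0.05, and Ikzf3 passed without unstimulated KO library 3 (-0.72, limma adjusted p = 0.0302). The Ikzf3 call in stimulated but not in unstimulated cells is therefore not shown to be a difference between the states.

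**Figure D2:**
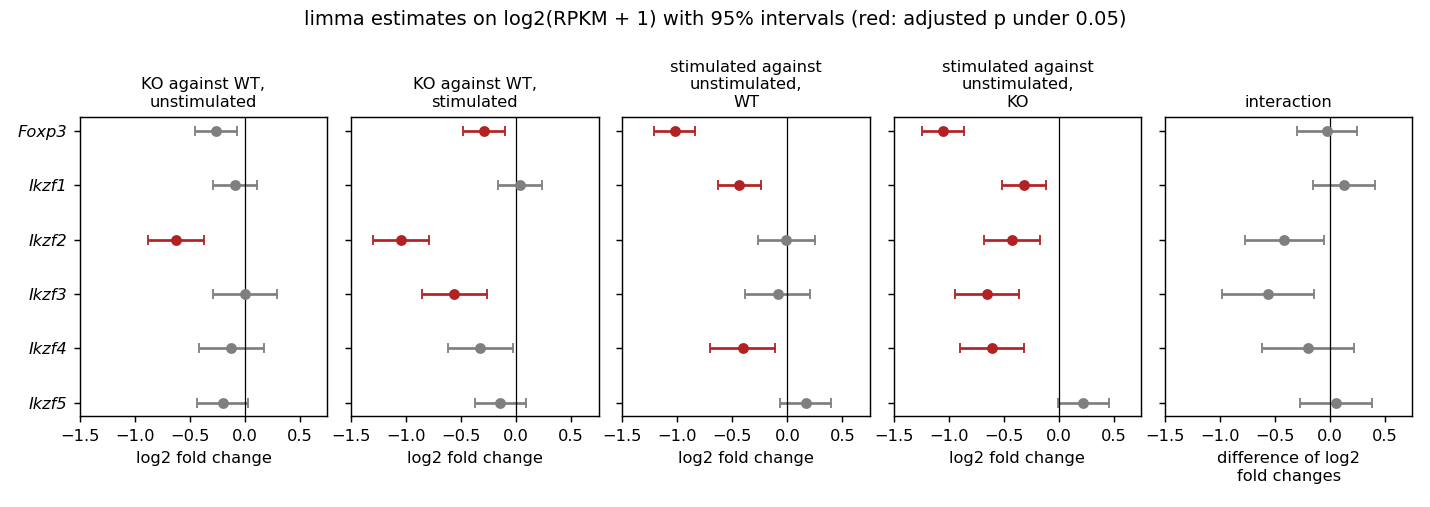
log2 fold change on the log2(RPKM + 1) scale (x axis) of each member (y axis) in the 4 contrasts and the interaction, with 95% limma intervals from 12 libraries; red marks an adjusted p under 0.05. Foxp3 lies near -1 with stimulation in both genotypes (-1.03 and -1.05), and Ikzf2 lies lowest of the members in both KO against WT panels (-0.63 and -1.04).

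With stimulation, Foxp3, Ikzf1 and Ikzf4 were called lower in both genotypes. Foxp3 fell by 1.03 on the log2 scale in WT (SE 0.09, limma adjusted p = 1.27e-07) and by 1.05 in KO cells (SE 0.09, limma adjusted p = 1.02e-07), Ikzf1 fell by 0.44 (limma adjusted p = 0.000653) and 0.31 (limma adjusted p = 0.00702), and Ikzf4 fell by 0.41 (limma adjusted p = 0.0145) and 0.61 (limma adjusted p = 0.00104). The Foxp3 falls differed by -0.03 (interval -0.30 to 0.24, limma adjusted p = 0.934). Ikzf2 and Ikzf3 fell in KO cells, by 0.42 (limma adjusted p = 0.00494) and 0.65 (limma adjusted p = 0.00061), while their WT values of -0.01 (interval -0.26 to 0.25, limma adjusted p = 0.952) and -0.09 (interval -0.38 to 0.21, limma adjusted p = 0.566) did not pass. Since the interaction called 0 of the 6 members, a response to stimulation that differs between the genotypes is not shown for either. Ikzf5 did not pass in either genotype, at 0.17 in WT (limma adjusted p = 0.167) and 0.22 in KO (limma adjusted p = 0.0714).

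In WT cells 3 of 6 members were thus called lower and 0 higher, where 35.4% of all tested genes were called lower and 44.5% higher. In KO cells 5 of 6 were called lower and 0 higher, where 34.6% of all genes were called lower and 44.3% higher. The median of all genes lay at 0.106 in WT and 0.117 in KO on this scale, and rescaling by median-of-ratios factors brought it to -0.00385 and -0.00452. With that rescaling 4153 genes were called higher and 4128 lower in WT, and 4091 and 4125 in KO, so the excess of higher calls over all genes did not hold. Foxp3 then fell by 1.15 in WT and by 1.20 in KO cells. Same-numbered libraries of the 2 states deviated together in each genotype, weakly in WT (correlations 0.075 to 0.146). With a block by genotype and number Ikzf5 in KO passed as higher (0.22, limma adjusted p = 0.0474). It also passed without unstimulated KO library 2 (0.30, limma adjusted p = 0.0302), and in WT without unstimulated WT library 3 (0.26, limma adjusted p = 0.0449). The fall of Ikzf4 in WT did not pass without stimulated WT library 1 (-0.33, limma adjusted p = 0.0616). With those that hold Y-linked transcripts left out it was -0.29 (limma adjusted p = 0.378), and that of Ikzf1 in WT was -0.32 (limma adjusted p = 0.153).

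The falls of the members with stimulation came in libraries where most markers of other cells were also lower: 5 of 6 tested B and plasma cell markers were called lower in each genotype, 5 (WT) and 6 (KO) of 6 myeloid and dendritic cell markers, 3 of 3 NK cell markers and 1 of 1 CD8 T cell marker. The sixth B and plasma cell marker, Sdc1 of plasma cells, was called higher, by 0.98 in WT and 1.63 in KO. Of the 6 Treg cell markers, 4 were called higher and 2 lower in WT, and 3 higher and 3 lower in KO. Cd3e (-1.635 in WT and -1.425 in KO) and Cd4 (-1.462 and -1.5) were lower in both genotypes. Il2ra, Tnfrsf18 and Lrrc32 were higher in both, and Ctla4 was higher in WT and lower in KO. Ikzf1 and Ikzf3 are also active in B cells, and the part of these cells in the falls was not tested. In such bulk samples, fewer cells of a type and less RNA per cell cannot be told apart. Between genotypes without stimulation, 2 of 6 B and plasma cell markers were called lower in KO, Jchain (-1.36) and Sdc1 (-0.51). Of 6 myeloid and dendritic cell markers, 4 were called lower and 1 higher. The part of these cells in the lower Ikzf2 of unstimulated KO cells was not tested. After stimulation 0 markers of either list were called between genotypes by limma (1 B and plasma cell marker had an unadjusted p under 0.05), all 13 myeloid and dendritic cell markers were under 1 RPKM in WT, and 12 were in KO.

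RPKM is per exon length, so comparing it between genes rests on the annotated exons, of which Foxp3 shares some with its neighbours. The order of the members by RPKM changed with state and genotype. In unstimulated WT cells it was Ikzf1, Foxp3, Ikzf3, Ikzf2, Ikzf4 and Ikzf5, and no neighbours in that order overlapped between libraries. In unstimulated KO cells Ikzf1 overlapped with Foxp3, and Ikzf4 came above Ikzf2 with overlap. In stimulated WT cells Ikzf3 came just above Foxp3 with overlap. In stimulated KO cells Foxp3 was again above Ikzf3 without overlap, and Ikzf2, at 9.25 ± 1.495 RPKM, overlapped with Ikzf4, at 9.07 ± 1.99 RPKM (SD, n = 3).

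**Figure D3:**
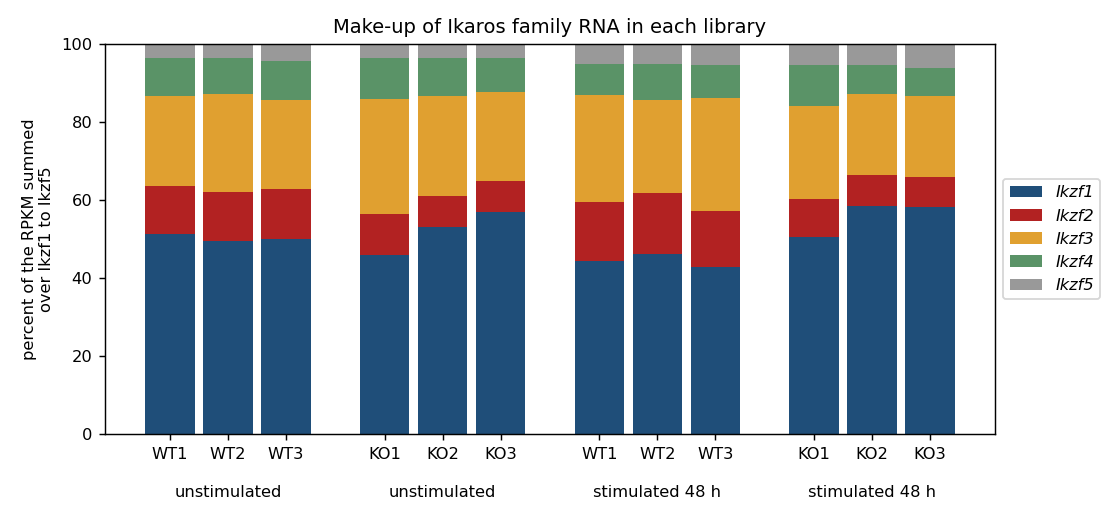
Each member's percent (y axis, 0 to 100) of the RPKM summed over Ikzf1 to Ikzf5 in each of the 12 libraries (bars). The red Ikzf2 band is thinner in KO libraries, with means of 8.72% and 8.45%, than in WT libraries, with means of 12.6% and 14.98%, while Ikzf1 makes up a mean of 55.8% in stimulated KO against 44.5% in stimulated WT.

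The make-up of Ikaros family RNA showed the same shift within each library, where it does not rest on scaling between libraries. Summed over Ikzf1 to Ikzf5, it came to 160.2 ± 0.518 RPKM in unstimulated WT, 146.8 ± 15.9 in unstimulated KO, 133.8 ± 13.4 in stimulated WT and 109.3 ± 1.55 in stimulated KO cells. Ikzf2 made up 12.6% ± 0.340 of that sum in unstimulated WT, 8.72% ± 1.45 in unstimulated KO, 14.98% ± 0.565 in stimulated WT and 8.45% ± 1.27 in stimulated KO cells (SD, n = 3). Its share in KO libraries lay under that in WT libraries in both states. Ikzf1 made up 50.3% ± 1.01, 52.0% ± 5.52, 44.5% ± 1.73 and 55.8% ± 4.62 in the same order, and Ikzf3 23.6% ± 1.21, 26.1% ± 3.30, 26.7% ± 2.59 and 21.8% ± 1.77. Stimulated KO cells therefore had a larger share of Ikzf1 and smaller shares of Ikzf2 and Ikzf3 than stimulated WT cells, without overlap of libraries. Such shares were compared 20 times, over 5 genes and 4 contrasts, and the comparisons are not independent because the shares of a library sum to the whole. A comparison without overlap had an exact two-sided permutation p of 0.1, the smallest that 3 libraries against 3 allow, and an adjusted p of 0.2, so none could pass.

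The ratio of Ikzf2 to Foxp3 RPKM was 0.288 ± 0.0284 in unstimulated WT and 0.221 ± 0.0467 in unstimulated KO, with overlap between libraries, and 0.590 ± 0.0180 in stimulated WT and 0.335 ± 0.0386 in stimulated KO, without. The ratio of Ikzf2 to Ikzf1 was 0.250 ± 0.0111, 0.171 ± 0.0478, 0.337 ± 0.000642 and 0.154 ± 0.0371 in the same order. In stimulated KO cells there was thus less Helios RNA for the same amount of Foxp3 or Ikaros RNA than in stimulated WT cells.

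**Figure D4:**
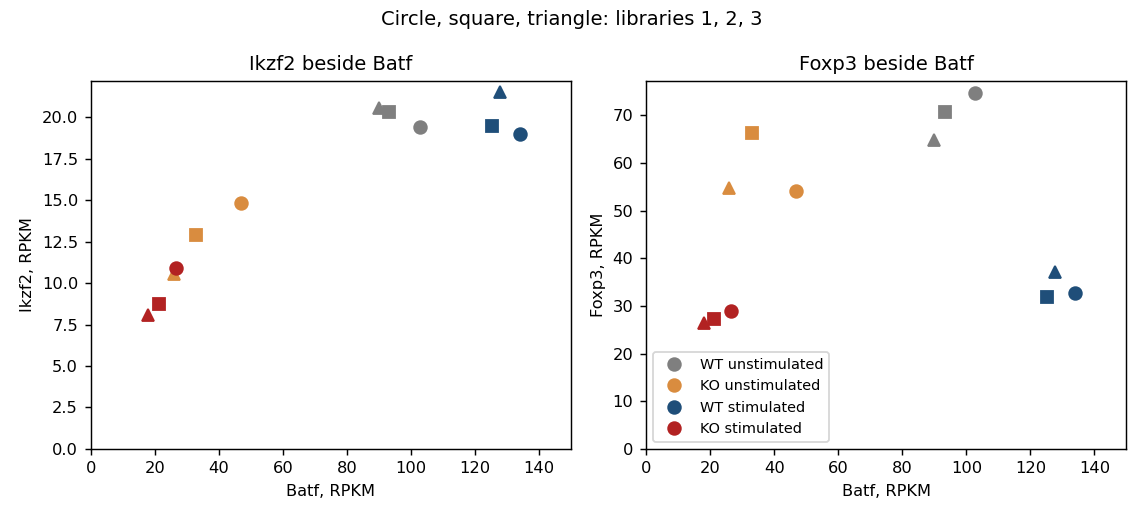
Ikzf2 (left) and Foxp3 (right) RPKM (y axes) against Batf RPKM (x axes) in each of the 12 libraries; colour gives the group and circle, square and triangle give libraries 1, 2 and 3. KO libraries lie at 17.98 to 46.91 RPKM of Batf, with Ikzf2 lower where Batf is lower, while Foxp3 lies lower in stimulated than in unstimulated libraries at any amount of Batf.

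The plot against Batf is a description over libraries that fall into separate groups, so no pooled correlation is given. Genes whose profile over the 12 libraries was nearest to that of a member were found by the root mean square difference of centred log2(RPKM + 1) values, among genes with a mean of at least 5 RPKM. Nearest to Ikzf2 were Dusp10, a phosphatase of MAP kinases (0.176), Klf6, a zinc-finger factor (0.178), and Gata3, the type 2 lineage factor that Treg cells also use (0.194). Nearest to Foxp3 were Aak1, a kinase of endocytosis (0.0605), Elf1, an ETS family factor (0.0824), and Cyld, a deubiquitinase (0.0910). The 3 genes nearest to Ikzf1 (Ubald1, Exoc3 and Gpkow) lay at 0.0675 to 0.0814, those nearest to Ikzf3 (Trim59, Zmiz1 and Wbp5) at 0.115 to 0.129, those nearest to Ikzf4 (Wnk1, Aim2 and Xiap) at 0.0943 to 0.105, and those nearest to Ikzf5 (Efcab14, Rybp and Stag1) at 0.0714 to 0.0861. Ikzf2 thus had the most distant nearest gene of the 6. Among the members themselves, Ikzf3 and Ikzf4 were the closest pair (0.166) and Foxp3 and Ikzf5 the most distant (0.633).

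The genes that act with the members were read from the same fit, with a median log2 fold change of all tested genes of -0.02 in unstimulated and -0.00 in stimulated KO cells. The list counts stand beside 5.83% of all tested genes called lower and 4.35% called higher in unstimulated KO, and 9.81% and 7.76% in stimulated KO. Of 25 tested factors that act at the Foxp3 gene, 3 fell and 0 rose in unstimulated KO (median -0.13). They were Runx1, Ets1 and Nfatc1, factors that bind Foxp3 promoter or enhancer DNA. Ets1 went from 221.5 ± 7.44 to 173.4 ± 11.6 RPKM (n = 3, log2 fold change -0.35, limma adjusted p = 0.0200), Runx1 from 12.4 ± 0.385 to 8.82 ± 0.933 RPKM (-0.45, limma adjusted p = 0.0142) and Nfatc1 by -0.43 (limma adjusted p = 0.0384). Without unstimulated WT library 1 none of the 3 passed, with Runx1 at -0.45 (limma adjusted p = 0.0502), Ets1 at -0.35 (0.0627) and Nfatc1 at -0.40 (0.118). Ets1 and Nfatc1 were also lost without unstimulated WT library 3 (-0.33 and -0.40) or unstimulated KO library 1 (-0.33 and -0.45) or 3 (-0.32 and -0.34), and Nfatc1 without stimulated KO library 3 (-0.43).

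In stimulated KO cells 8 of the 25 fell and 2 rose (median -0.15). The nuclear receptors Nr4a2 (from 9.93 ± 1.30 to 3.54 ± 0.634 RPKM, -1.27, limma adjusted p = 8.38e-05) and Nr4a3 (from 68.6 ± 4.89 to 42.1 ± 3.44 RPKM, -0.69), which act downstream of the T cell receptor, fell together with Creb1 (-0.68), while Smad3, which carries TGF-beta signals to Foxp3, rose from 6.66 ± 0.547 to 11.4 ± 1.16 RPKM (0.69, limma adjusted p = 0.000161). Of 21 tested partners and stabilisers of the Foxp3 protein, 5 fell and 1 rose in unstimulated and 6 fell and 2 rose in stimulated KO (medians -0.12 and -0.15). Hif1a, the hypoxia factor that promotes loss of Foxp3 protein, fell by 0.48 and by 1.01, and Rora, an orphan nuclear receptor, fell by 1.18 and by 0.99. Rora was low, at 2.745 ± 0.207 and 0.683 ± 0.364 RPKM before and 1.35 ± 0.266 and 0.177 ± 0.0105 RPKM after stimulation (WT and KO, n = 3). The size of its fall depends on the scale. Over the settings tried it ran from -2.12 to -1.02 and from -2.89 to -0.92, both lower ends from limma-voom. Its unstimulated call was lost without the libraries with Y-linked transcripts (-1.09, limma adjusted p = 0.0757). Irf4, a partner of BATF at DNA, rose by 0.58 and 0.51, and the kinase Pim1 rose by 0.88 in stimulated cells. The 2 lists share members, and none of these 8 genes lost its call when 1 library was left out. Without the libraries with Y-linked transcripts, which leaves 1 WT library per state, further calls were lost. They were Irf4 in unstimulated (0.51) and stimulated cells (0.41), Hif1a in unstimulated cells (-0.52) and Nr4a3 in stimulated cells (-0.73).

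Of 17 tested corepressors and remodellers that work with Ikaros proteins, 0 were called in unstimulated KO by limma (4 had an unadjusted p under 0.05, and limma-voom on recovered reads called 1), and 4 fell and 2 rose in stimulated KO (medians -0.07 in both). Chd3, a helicase of the NuRD complex, fell from 19.1 ± 0.726 to 11.5 ± 0.307 RPKM (-0.68, limma adjusted p = 0.00296), Mta3 fell by 0.40, Gatad2a by 0.29 and Mbd2 by 0.26. The call of Chd3 held with any 1 library left out but not without the libraries with Y-linked transcripts (-0.73). Those of the other 3 did not hold without stimulated WT library 3, at -0.32 (Mta3, limma adjusted p = 0.0585), -0.24 (Gatad2a, 0.141) and -0.22 (Mbd2, 0.0603). Mta3 was also lost without stimulated KO library 3 (-0.37), Mbd2 without KO library 1 (-0.23) or 2 (-0.25), and Gatad2a without WT library 2 (-0.30) or KO library 1 (-0.26), 2 (-0.29) or 3 (-0.31). Of 8 genes of the cereblon ubiquitin ligase, which in human cells degrades Ikaros and Aiolos in the presence of thalidomide-type drugs (mouse cereblon responds poorly to them), 0 were called in unstimulated KO by limma (0 with an unadjusted p under 0.05 and 0 by limma-voom) and 4 fell in stimulated KO (medians -0.01 and -0.14). They were Ube2d3 (-0.63), Cul4b (-0.42), Ube2g1 (-0.39) and cereblon itself, Crbn, which went from 13.1 ± 0.431 to 10.1 ± 1.21 RPKM (-0.35, limma adjusted p = 0.0205). None of the 4 calls held without stimulated WT library 3, with Crbn at -0.33 (limma adjusted p = 0.0728), Ube2d3 at -0.45 (0.0568), Cul4b at -0.35 (0.0619) and Ube2g1 at -0.25 (0.0683). Crbn was also lost without stimulated WT library 2 (-0.34) or stimulated KO library 2 (-0.27) or 3 (-0.33), Ube2d3 without WT library 2 (-0.60) or KO library 2 (-0.59), and Ube2g1 without KO library 1 (-0.36) or 2 (-0.38). Crbn itself fell with stimulation, with log2 fold changes of -1.34 in WT and -1.66 in KO cells (limma adjusted p = 1.11e-08 and 1.51e-09).

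**Figure D5:**
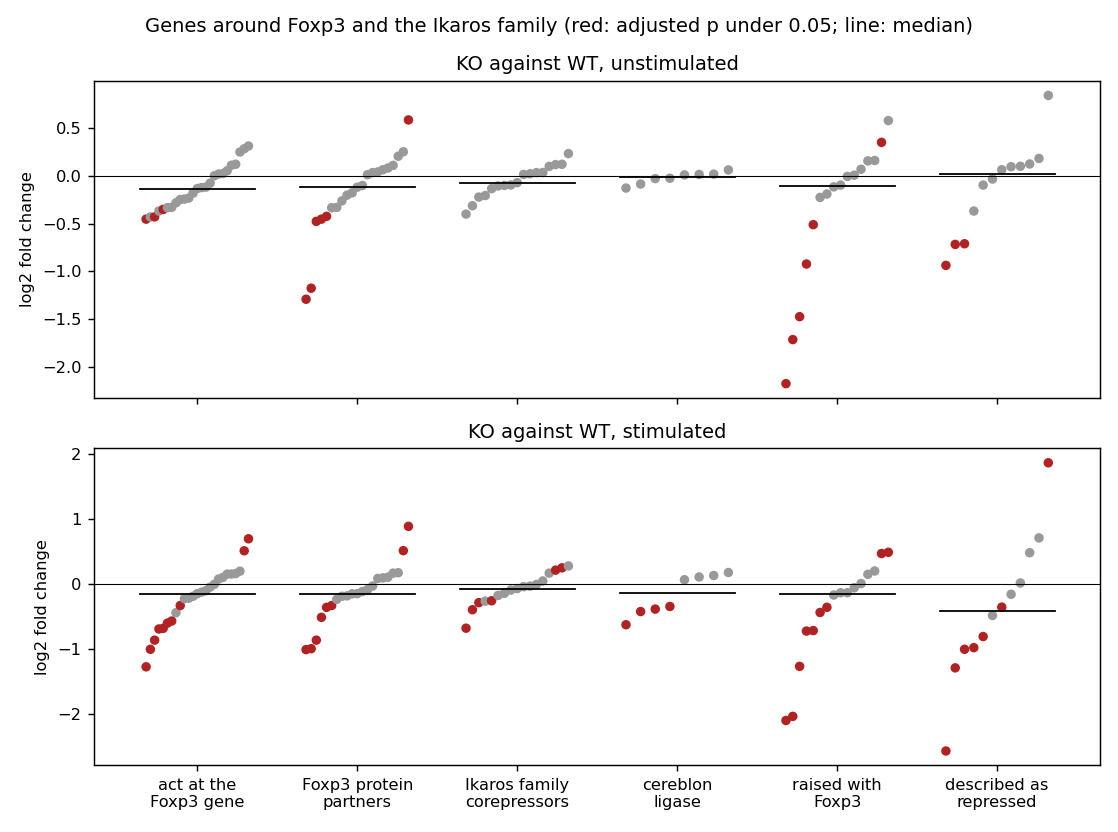
log2 fold change of KO against WT (y axis) for each tested gene of 6 lists (points, sorted within a list) without stimulation (top) and with it (bottom); red marks a limma adjusted p under 0.05 and lines mark list medians. List medians lie between -0.13 and 0.01 without stimulation and between -0.42 and -0.07 with it, and single genes reach -2.17 (Itgae, unstimulated), -2.56 (Il17a, stimulated) and 1.86 (Il2, stimulated).

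Among 16 genes raised with Foxp3 in Treg cells, 5 fell and 1 rose in unstimulated KO (median -0.11) and 7 fell and 2 rose in stimulated KO (median -0.15). Nrp1, a surface receptor of thymic Treg cells, fell from 51.4 ± 2.43 to 17.9 ± 2.02 RPKM in unstimulated KO (-1.47), and Icos, a costimulatory receptor, fell from 104.4 ± 15.3 to 31.4 ± 6.91 RPKM (-1.71). Itgae, the integrin chain CD103, was at 44.2 ± 1.55 RPKM in WT and at 29.75, 4.26 and 5.25 RPKM in the KO libraries (-2.17, limma adjusted p = 0.0149). Its call was lost without KO library 3 (-1.83, limma adjusted p = 0.0576) and with the 6 libraries of the contrast alone (-2.17, 0.06575). It was also lost with a Y-linked term (-2.19, limma adjusted p = 0.0577) and without the libraries with Y-linked transcripts (-2.14). In stimulated KO cells Ctla4, an inhibitory receptor, fell from 212.6 ± 33.3 to 51.0 ± 4.24 RPKM (-2.03), Il10, an anti-inflammatory cytokine, fell from 44.6 ± 5.27 to 18.6 ± 6.25 RPKM (-1.26), and Lrrc32, which carries latent TGF-beta on Treg cells, rose from 27.6 ± 1.89 to 38.9 ± 0.922 RPKM (0.49). The Lrrc32 call was lost without the libraries with Y-linked transcripts (0.43).

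Of 12 tested genes described as repressed in Treg cells by Foxp3 or an Ikaros factor, 3 fell and 0 rose in unstimulated KO (median 0.01) and 6 fell and 1 rose in stimulated KO (median -0.42). Those that fell in unstimulated KO were Pde3b, Bcl6 and Cd40lg. Pde3b, a phosphodiesterase, went from 1.865 ± 0.389 to 0.760 ± 0.378 RPKM (-0.72, limma adjusted p = 0.0188). Bcl6, the factor of follicular helper T cells, went from 5.61 ± 0.754 to 2.58 ± 1.28 RPKM (-0.94, limma adjusted p = 0.0237). Cd40lg, the ligand of CD40, went from 17.8 ± 0.739 to 10.7 ± 2.58 RPKM (-0.71, limma adjusted p = 0.0243). None of the 3 passed without unstimulated WT library 1, without unstimulated KO library 1 or without the libraries with Y-linked transcripts. Over the 12 fits that left out 1 library the call was lost in 3 (Pde3b), 4 (Bcl6) and 5 (Cd40lg). The gene that rose was Il2, which codes for the growth factor IL-2, at 6.86 ± 0.606 RPKM in WT and 30.8 ± 15.6 RPKM in KO (1.86, limma adjusted p = 0.000993). Il17a, an inflammatory cytokine, fell from 13.8 ± 3.43 to 1.49 ± 0.421 RPKM (-2.56), Il7r, the IL-7 receptor, fell from 5.27 ± 1.14 to 1.64 ± 0.914 RPKM (-1.29), and Cd40lg fell by 0.98. The Cd40lg call in stimulated KO was lost without the libraries with Y-linked transcripts (-1.09, limma adjusted p = 0.0510).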

How the data were processed

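RNA of 12 libraries was extracted with RNeasy Micro columns and made into stranded poly(A) libraries from 600 ng each, per the labels' protocols. The submitters' processing notes list FastQC, STAR and featureCounts of Subread, with build mm10 and no versions. The authors deposited 1 RPKM value per gene and library with exon length and position. The annotation release and the treatment of multi-mapping reads are not given in these sources. RPKM times length came in whole steps (100% within 0.01), which gave the reads assigned per library. Of 24421 entries, 27 with a date in place of a symbol were left out (0.185% to 0.284% of reads).

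limma 3.58.1 in R 4.3.3 with a mean trend was fitted to log2(RPKM + 1), which understates changes of genes with low values, with 1 mean per group over 12 libraries (8 residual degrees of freedom). Genes with at least 1 RPKM in 3 libraries were tested, and Benjamini-Hochberg adjustment ran over all of them. The steps were also run on simulated reads with the same spread setting for every gene and no effects of single libraries. That run does not tell how often calls are false in these libraries. Alternatives changed the pseudocount, filter, scaling, test, libraries and covariates, and leaving out both KO libraries numbered 1 was chosen after seeing the data. In both genotypes, each unstimulated library deviated most alike with the stimulated library of its own number. The correlations were 0.274, 0.19 and 0.11 in KO and 0.075, 0.134 and 0.146 in WT. The reported fit used no pairs, and a block by genotype and number was an alternative.

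The members and the gene lists were chosen with earlier results of these data known. Of each list, up to 4 genes with the smallest p per genotype contrast, and 3 in other contrasts, could be named, with 3 genes nearest to each member and genes that lead a marker list. Not every gene that the rule allows is given, and 1 is not reported here.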

Additional observations from a re-analysis of the deposited data

Results flagged for a closer look

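The interaction test called 0 of the 6 members. Among Batf and the genes around the members that were named for this contrast, it called 11. Of all tested genes it called 2.37% toward higher and 2.25% toward lower. The genes from the lists were picked by their small p in this same test. Their count therefore does not tell whether genes around the members are called more often. Each value here is the log2 fold change of KO against WT in stimulated cells minus that in unstimulated cells (limma on log2(RPKM + 1), adjusted p under 0.05). For the surface receptors and cytokines the difference was -2.02 for Ctla4, 1.94 for Nrp1, 0.99 for Icos, -2.46 for Il17a, -1.35 for Il7r and 1.74 for Il2. Il17a was at 0 in all 3 unstimulated KO libraries and at most at 0.109 RPKM in unstimulated WT, and Il2 at most at 0.160 RPKM in any unstimulated library, so these differences depend on the pseudocount. With limma-voom on recovered reads they were -1.02 (adjusted p = 0.718) and 0.53 (adjusted p = 0.944), and neither passed. Nrp1 fell by 1.47 in unstimulated KO and rose by 0.47 in stimulated KO cells. For the transcription factors and the kinase it was 0.82 for Smad3, 0.50 for Ets1, -0.84 for Nr4a2 and 0.68 for Pim1, and for the targeted gene Batf it was -1.08. Ctla4, Nrp1, Icos, Il17a and Smad3 kept their call in each fit that left out 1 library. In those 12 fits the call was lost in 10 for Il2, 9 for Ets1, 9 for Nr4a2, 5 for Batf, 1 for Pim1 and 1 for Il7r. Without the libraries with Y-linked transcripts Ctla4, Nrp1 and Il17a passed, while Icos (0.72, limma adjusted p = 0.281), Smad3 (0.78, 0.156), Il7r (-1.43, 0.205), Il2 (1.76, 0.311), Ets1 (0.58, 0.192), Nr4a2 (-1.12, 0.204), Pim1 (0.87, 0.128) and Batf (-1.14, 0.259) did not.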

How the results depend on the processing

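Of 702 results of a member under another setting, 676 kept their side of the threshold, 9 passed it where the reported value did not, 17 no longer passed and 0 changed direction as a call. The cause of a change was not tested. Calls in unstimulated KO against WT numbered 1060 as reported, 517 with the 6 libraries of the contrast alone and 98 without the libraries with Y-linked transcripts, where stimulated calls went from 1829 to 1212 and interaction calls from 481 to 24. Leaving out 1 library gave 568 to 1442, 997 to 2414 and 206 to 569 calls.

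Without the libraries with Y-linked transcripts Foxp3 in stimulated cells was -0.42, Ikzf2 in unstimulated cells -0.66, and stimulation in WT -0.32 for Ikzf1 and -0.29 for Ikzf4, none past the threshold. Foxp3 in stimulated cells was also lost without the filter (-0.29), with the replicate block by number (-0.29) and with a Y-linked term (-0.30). Gained calls were Ikzf4 in stimulated cells without both KO libraries numbered 1 (-0.48), Ikzf5 in unstimulated cells with a Y-linked term (-0.38) and Ikzf5 with stimulation in KO with that term (0.22) or the replicate block by genotype and number (0.22). The blocks changed no other member's call.

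Over fits that left out 1 library, Foxp3 ran from -0.36 to -0.21 in unstimulated and -0.33 to -0.23 in stimulated KO against WT, Ikzf3 from -0.68 to -0.42 and Ikzf4 from -0.48 to -0.24 in stimulated cells, the Ikzf3 interaction from -0.72 to -0.43, and stimulation from -0.48 to -0.33 for Ikzf4 in WT, 0.084 to 0.26 for Ikzf5 in WT and 0.16 to 0.30 for Ikzf5 in KO.

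Called members of the lists changed as follows. Factors at the Foxp3 gene numbered 3 in unstimulated cells, 6 after median-ratio rescaling, 8 with voom, 0 to 6 with 1 library left out and 0 without the libraries with Y-linked transcripts, which gave 5 in stimulated cells. Foxp3 partners then numbered 1 and 5, genes raised with Foxp3 2 and 5, and repressed genes 0 and 4 (unstimulated and stimulated). Corepressors in unstimulated cells numbered 1 with rescaling, voom or a Y-linked term and 0 to 3 with 1 library left out, and in stimulated cells 3 with the block by number and 1 to 9 with 1 library left out. Cereblon ligase genes numbered 0 to 4 in stimulated cells with 1 library left out. Repressed genes in unstimulated cells numbered 1 with a pseudocount of 0.1, no filter, the filter of 5 RPKM, 6 libraries or a Y-linked term, and 0 to 4 with 1 library left out. Of 105 other results, each a gene the naming rule allows in 1 contrast, 61 kept their side of the threshold in every fit. Without Ikzf5 in the sum, the Ikzf2 share was 13.1% in unstimulated and 15.8% in stimulated WT cells.

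The interaction has no fit on 6 libraries, and genotype contrasts cannot be estimated beside a block by genotype and number.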
